A study of Mus musculus with 30 samples.

Results

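Tibialis anterior muscle, the main dorsiflexor of the mouse foot, was compared between day 15 and day 11 after volumetric muscle loss, a wound in which a block of muscle is removed together with the stem cells and matrix it held. The 12 libraries whose titles give 11 or 15 days after injury were taken from the 30 in the series, 6 per day, of which 3 per day were labelled male and 3 female. The other 18 libraries were uninjured muscle and muscle at 4 and 7 days, from the same design of 3 libraries for each sex and time. They entered the choice of genes tested, the scaling and the estimate of the spread, and show where a gene stood earlier. All 24 injured libraries share the injury. Strain, age and the size of the defect were not given in the sources used here, and neither was the hour of day at which muscle was taken. No label says that each library came from a mouse of its own, so a p-value here is set against variation among libraries, which may be technical. Levels are CPM, the gene's share of a library's counts at a common total, after scaling by the trimmed mean of M-values. Sex-linked genes were used to check the labels. The library labelled female day 11 replicate 3 had 0.109 CPM of Xist and 57.4 CPM of Ddx3y, inside the male range of 45.9 to 66.4 CPM for Ddx3y, so it goes against its label. The other Y-linked genes were above the male range in it, with Uty at 28 CPM against at most 22.4, Kdm5d at 21 against at most 11.9 and Eif2s3y at 147 against at most 105. It was kept in the group its label gives. The calls that its removal adds or ends are given with many of the lists, but not with all.

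After a muscle wound, macrophages clear debris, satellite cells divide and fuse into new fibres that first carry embryonic and neonatal myosins, and fibroblasts lay down matrix while vessels regrow. In volumetric muscle loss this sequence ends in a scar rather than in restored muscle, and the days compared fall in the period in which inflammation normally recedes and new fibres mature. Immediate early genes, which include Fos and its relatives, encode transcription factors and signal inhibitors that are transcribed within minutes of stimulation of a cell.

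Of 17136 genes tested, 727 differed between the days, 342 higher at day 15 and 385 lower. That is 4.24% of the tested genes, 2.00% higher and 2.25% lower. The clearest rise was in the immediate early genes: 18 of 22 rose, led by Fosb at 45.2-fold and Fos at 24.0-fold. Smaller shares rose of other lists: 7 of 21 genes of muscle atrophy and glucocorticoid response, 8 of 28 endothelial genes, 5 of 19 clock genes, of which 1 more fell, and 5 of 23 genes of bone morphogenetic protein signalling. Falls were called in 13 of 32 interferon-stimulated genes, 9 of 26 T cell and natural killer cell genes, 6 of 20 core macrophage genes and 4 of 17 developmental and regenerating fibre genes. A gene was called changed at a Benjamini-Hochberg adjusted p under 0.05 in edgeR's quasi-likelihood test, with the sexes weighted equally, and every adjusted p in the text is from that test unless another is named. Levels are given as the lowest, median and highest of 6 libraries. Changes are log2 fold changes of day 15 against day 11 ± SE, on which 1 is a 2-fold change.

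The 2 sides of the comparison were unlike. Among the genes that rose, 191 of 342 had all 6 day 15 libraries above all 6 day 11 libraries, and the median of their mean levels was 23.9 CPM. Among those that fell, 101 of 385 had no overlap, at a median level of 6.05 CPM. Over all tested genes, 1.51% had day 15 wholly above day 11 and 0.928% wholly below. At least 2-fold changes were 159 of the rises and 260 of the falls. The median change over all tested genes was -0.05.

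Libraries held 27129433 to 38555740 counts at day 11 and 13089999 to 30024528 at day 15. The library that goes against its label was the lowest of the 12 for the core macrophage list, and with it counted as female the Y-linked Uty and Eif2s3y are among the falls. Without it 1506 genes were called, 575 higher and 931 lower. Female day 11 replicate 2 was the highest of the 12 libraries for 30 of 32 interferon-stimulated genes, 20 of 26 T cell and natural killer cell genes and 17 of 20 core macrophage genes. Without it 301 genes were called, 202 higher and 99 lower. With both left out, the count was 433, of which 260 were higher. Female day 15 replicate 3 was the highest for 20 of 22 immediate early genes, and without it 308 genes were called. The count was also more than 1.5 times lower without male day 11 replicate 2 (371), male day 11 replicate 3 (305), male day 15 replicate 2 (313) or male day 15 replicate 3 (353). Single genes such as Erbb3, Ccl11, Sfrp4 and Cd22 were also not called without 1 or more of these male libraries. A fit to the 12 libraries alone called 412 genes, 67.2% of them higher, against 47% in the fit to all 30.

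**Figure D1:**
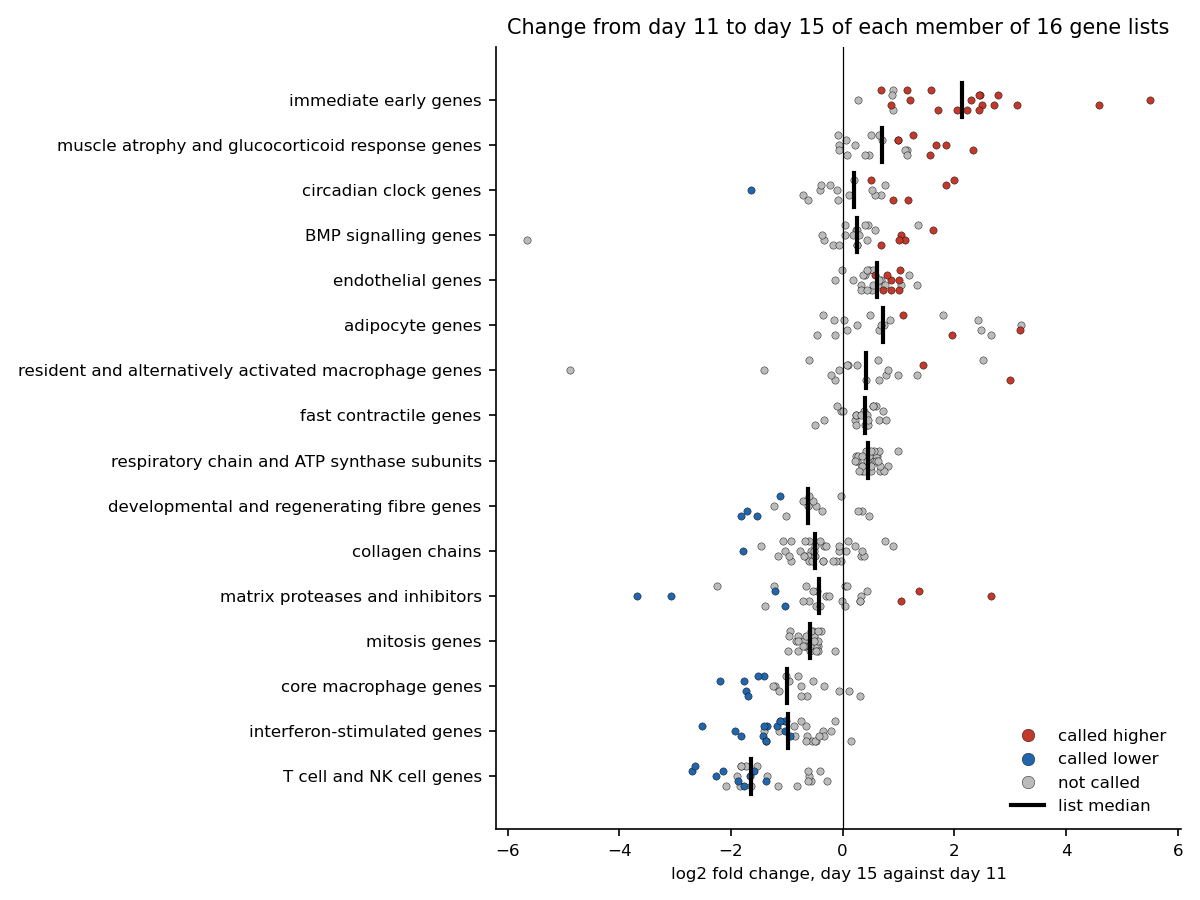
Log2 fold change from day 11 to day 15 (horizontal axis) of every tested member of 16 gene lists (rows), with called members in red or blue, others in grey and the list median as a black bar. All 22 immediate early genes lie to the right of 0 and all 26 T cell and natural killer cell genes to the left, while the contractile, respiratory and collagen lists hold few or no called members.

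Stretches of the promoters of 5 genes are printed here to show the short elements that were searched for at the start sites of the immediate early genes and the interferon-stimulated genes. Each is the 250 bases before the annotated start from RefSeq, in build GRCm38.p6, 5′ to 3′ on the strand of the gene. The authors' counts were made on mm39, so these coordinates belong to GRCm38.p6 only. The stretches are Fos at chr12:85473640-85473889, plus strand, Nr4a1 at chr15:101266596-101266845, plus strand, Dusp1 at chr17:26508473-26508722, minus strand, Zfp36 at chr7:28379229-28379478, minus strand, and Ifit1 at chr19:34640639-34640888, plus strand. Capitals mark the half-site of the cyclic AMP response element, TGACG or its reverse complement, in Fos, Nr4a1 and Dusp1. They mark a CArG box, the site of serum response factor, in Zfp36, and the interferon response element, a pair of GAAA repeats with any pair of bases between, on either strand, in Ifit1.
Fos: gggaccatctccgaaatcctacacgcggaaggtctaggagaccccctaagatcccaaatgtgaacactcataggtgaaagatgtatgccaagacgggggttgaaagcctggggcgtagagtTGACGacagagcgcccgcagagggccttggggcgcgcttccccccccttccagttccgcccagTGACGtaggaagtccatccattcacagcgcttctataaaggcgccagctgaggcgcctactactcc
Nr4a1: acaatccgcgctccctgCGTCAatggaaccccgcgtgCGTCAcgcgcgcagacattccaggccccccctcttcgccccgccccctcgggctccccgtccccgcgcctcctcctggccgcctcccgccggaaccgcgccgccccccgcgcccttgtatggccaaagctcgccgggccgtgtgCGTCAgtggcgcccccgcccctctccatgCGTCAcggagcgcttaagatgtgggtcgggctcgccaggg
Dusp1: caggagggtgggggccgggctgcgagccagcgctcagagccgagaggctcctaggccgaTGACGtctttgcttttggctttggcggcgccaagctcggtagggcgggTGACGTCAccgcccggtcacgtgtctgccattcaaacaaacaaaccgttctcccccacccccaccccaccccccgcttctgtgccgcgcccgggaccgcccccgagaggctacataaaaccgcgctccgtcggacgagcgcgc
Zfp36: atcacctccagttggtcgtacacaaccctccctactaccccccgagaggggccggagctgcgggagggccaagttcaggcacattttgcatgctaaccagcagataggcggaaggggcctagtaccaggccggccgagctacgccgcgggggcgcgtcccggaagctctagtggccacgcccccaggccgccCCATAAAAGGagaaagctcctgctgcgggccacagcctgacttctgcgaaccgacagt
Ifit1: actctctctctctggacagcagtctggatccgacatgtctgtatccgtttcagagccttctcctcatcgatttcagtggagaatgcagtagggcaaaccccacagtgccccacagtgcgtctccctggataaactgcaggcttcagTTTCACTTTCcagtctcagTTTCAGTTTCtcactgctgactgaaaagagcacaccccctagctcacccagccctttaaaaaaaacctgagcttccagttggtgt

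Motifs were searched on both strands from 250 bases before to 50 bases after each start. The half-site TGACG was in 14 of 21 windows of the immediate early genes (66.7%), against 20.8% of 32851 windows of all genes. Among these 14 are overlapping windows of Egr2 that hold the same sites, and Egr2 was not called. Windows existed for 17 of the 22 members. Of the 16 members that rose and had a window, 11 held the half-site. A CArG box was in 5 of the 21 windows (23.8%) against 1.63% of all windows. Of these 5 windows 4 belong to Egr2, which was not called, and the other to Zfp36, so 1 of the 16 members that rose held the box. The AP-1 site TGANTCA was in 0 of the 21 windows and in 7.81% of all windows. These 2 elements, the CArG box and TGACG, were chosen for the search after the values were seen. The interferon response element was in 14 of 26 windows of interferon-stimulated genes (53.8%) against 3.44% of all windows. Among the 13 that fell, 8 had a window and 4 of these held it. The muscle E-box CAGCTG was in 22.2% of 18 windows of developmental and regenerating fibre genes, against 16.3% of all windows. Windows with several elements were counted once for each element, and a match says only that the letters are there.

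The immediate early genes, which encode transcription factors and brakes on signalling, rose together between the days. Of 22 tested members 18 rose and 0 fell (81.8%, against 4.24% of all tested genes), and the median change was 2.14, against -0.05 over all genes. Fos, a partner in the AP-1 transcription factor, stood at 9.99, 14.2 and 29.6 CPM at day 11 and at 185, 334 and 1197 CPM at day 15. The groups did not overlap, and the lowest day 15 library was above every uninjured, day 4, day 7 and day 11 library. Its change was 4.59 ± 0.45 (adjusted p = 6e-07). Fosb, a close relative of Fos, was measured at 3.05, 3.92 and 6.81 CPM at day 11 and 65.9, 152 and 629.8 CPM at day 15, a change of 5.50 ± 0.50 (adjusted p = 4.6e-07). In uninjured muscle Fosb was at 0.184 to 2.13 CPM, so its day 15 level was above both the uninjured and the day 11 level. Against uninjured muscle, Fos stood 1.70 ± 0.40 higher on the log2 scale at day 11 and 6.29 ± 0.49 at day 15. The 2 comparisons share the uninjured libraries.

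Egr1, a zinc finger factor induced by growth factor signalling, rose from 47.7, 62.3 and 109 CPM to 222, 344 and 1375 CPM (2.78 ± 0.51, adjusted p = 0.00233). Junb, which pairs with Fos, rose from 34.5, 45.9 and 57.4 CPM to 116, 214 and 663 CPM (2.46 ± 0.26, adjusted p = 1.49e-06). For both genes every day 15 library was above every day 11 library. Jun, with levels of 76.9, 96.9 and 127 CPM and 140.4, 205 and 387 CPM, and Jund, with 69.6, 119 and 175 CPM and 131, 242 and 467 CPM, rose less, by 1.21 and 1.15. The day 11 and day 15 libraries of Jund overlapped.

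The nuclear receptors of the Nr4a family rose as well. Nr4a1, which in muscle responds to activity and to adrenergic signals, went from 35.4, 77.6 and 102 CPM to 180.3, 364 and 686 CPM (2.44 ± 0.39, adjusted p = 0.000456). Unlike Fos, Nr4a1 was also high in uninjured muscle, at 182 to 374 CPM. Its day 11 level was -1.86 ± 0.38 against uninjured muscle and its day 15 level 0.59 ± 0.37 (adjusted p = 0.156). Nr4a2 changed by 1.59 ± 0.27 and Nr4a3 by 2.44 ± 0.34, with no overlap between the days for either. Klf4 and Klf2, zinc finger factors of vessels and other tissues, rose by 2.49 ± 0.30 and 1.70 ± 0.29. The stress factor Atf3 rose by 2.05 ± 0.39, and its groups overlapped.

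Genes that switch such signals off rose with them. Zfp36, whose protein binds AU-rich elements and speeds the decay of cytokine messages, went from 21.1, 22.9 and 32.7 CPM to 90.4, 173 and 697 CPM (3.12 ± 0.30, adjusted p = 5.87e-07). Dusp1, a phosphatase that inactivates mitogen-activated protein kinases, went from 35.6, 47.1 and 72.8 CPM to 124, 235 and 424 CPM (2.30 ± 0.30, adjusted p = 3.68e-05). Neither gene overlapped between the days. Socs3, a brake on signalling by interleukin 6, rose by 1.69 ± 0.31, and Btg2, a brake on cell division, rose from 17.1, 22.7 and 26.1 CPM to 56.2, 123 and 371 CPM (2.70 ± 0.27, adjusted p = 1.11e-06). Ier2, Ier3 and Fosl2 rose by 2.22, 0.87 and 0.68, and Ier3 and Fosl2 were not called without the library that goes against its label.

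The 4 members that were not called were Fosl1 (0.87 ± 0.90, adjusted p = 0.656), Egr2 (0.90 ± 0.30, adjusted p = 0.0943), Egr3 (0.91 ± 0.37, adjusted p = 0.167) and Myc (0.27 ± 0.26, adjusted p = 0.631). Fosl1 was at no more than 0.194 CPM in any of the 12 libraries. The rise was not the same size in every day 15 library. Male day 15 libraries had Fos at 185, 287 and 224 CPM. Those labelled female had it at 575, 380 and 1197 CPM, the last being replicate 3. Without female day 15 replicate 3, 16 of the 22 were called higher and the list's median was 1.85. Without the library that goes against its label, 16 were called, and without female day 11 replicate 2, 17 were called. In males alone 8 of 22 were called, against 0.140% of all genes higher and 0.0117% lower. In females alone 16 were called, against 0.817% of all genes higher and 0.344% lower.

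**Figure D2:**
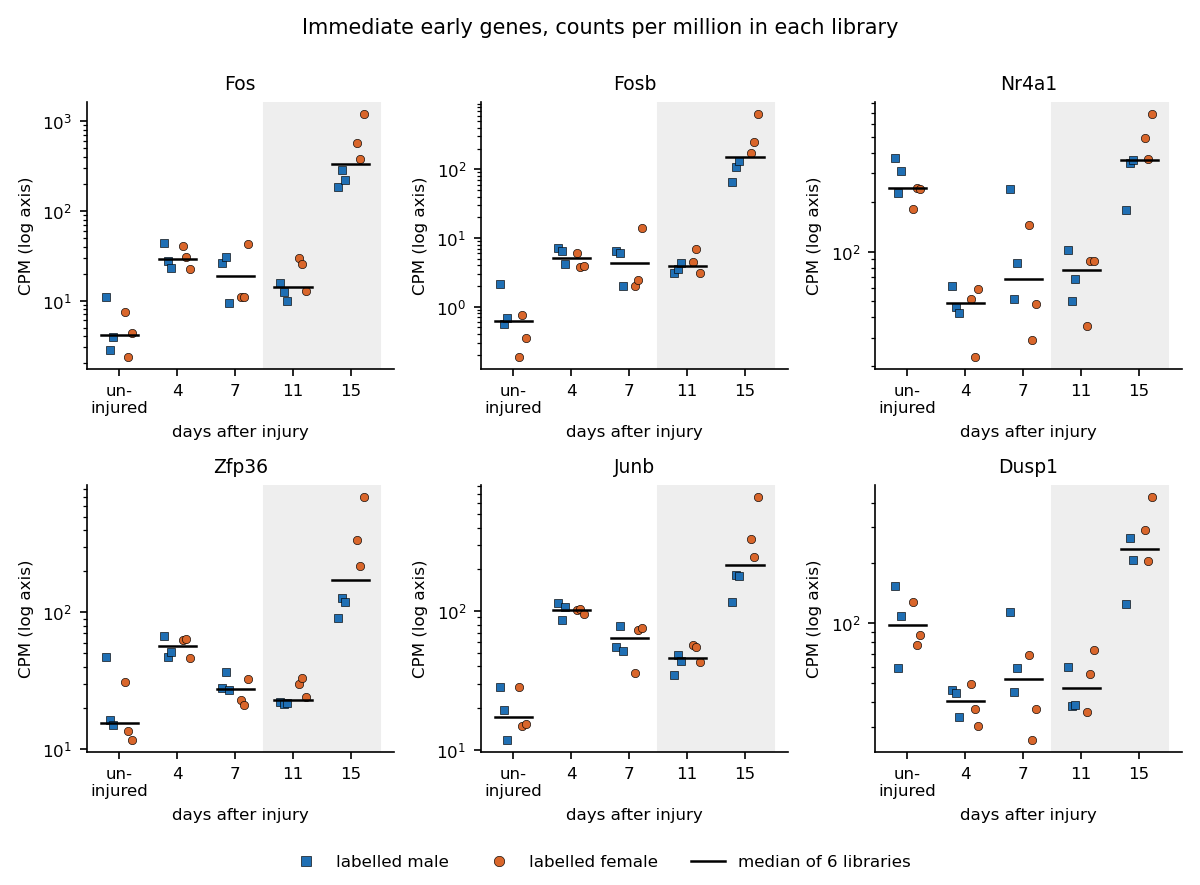
CPM (log axes) of 6 immediate early genes in every library of uninjured muscle and of muscle 4, 7, 11 and 15 days after injury (horizontal axes), with squares for libraries labelled male, circles for those labelled female and bars for the median of 6. The shaded columns are the days compared: for all 6 genes every day 15 library lies above every day 11 library, and Fos, Fosb and Zfp36 are also above every uninjured, day 4 and day 7 library.

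Several secreted proteins and their kin rose beside the immediate early genes. Cxcl1, a chemokine that draws neutrophils, went from 0.537, 0.969 and 1.71 CPM to 3.61, 12.9 and 67.2 CPM (3.76 ± 0.42, adjusted p = 4.86e-06). All 6 day 15 libraries exceeded all 6 day 11 libraries, and Cxcl1 was the only chemokine ligand besides Ccl11 to rise of 31 tested, while Xcl1 fell. Il6, the cytokine interleukin 6, was the only called member of 25 cytokine genes (4%, against 4.24% of all tested genes). It stood at 0.0561, 0.263 and 0.347 CPM at day 11 and 0.203, 1.86 and 18.1 CPM at day 15 (3.17 ± 0.58, adjusted p = 0.00233). Its groups overlapped, and female day 15 replicate 3 had the highest value. Ccl11, the eosinophil attractant eotaxin, rose from 3.31, 5.60 and 9.05 CPM to 9.29, 9.99 and 15.8 CPM (0.96 ± 0.26). Xcl1, made by T cells and natural killer cells, fell from 0.273, 0.793 and 5.46 CPM to 0.143, 0.213 and 0.310 CPM (-2.45 ± 0.57). Without the library that goes against its label, 4 cytokine genes were called lower and 1 higher. For chemokine ligands these counts were 6 and 3.

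Ptgs2, the inducible cyclooxygenase, rose by 2.27 ± 0.52, from 0.818, 1.41 and 2.30 CPM to 1.88, 5.99 and 28.9 CPM. Has1, a hyaluronan synthase, rose by 2.90 ± 0.53, and Sele, the endothelial adhesion molecule E-selectin, by 3.48 ± 0.69. Sele was low, at 0.0545, 0.124 and 0.152 CPM at day 11 and 0.324, 0.743 and 6.64 CPM at day 15, yet its groups did not overlap. Il1b (1.21 ± 0.52, adjusted p = 0.195) and the monocyte chemokine Ccl2 (0.59 ± 0.44, adjusted p = 0.519) were not called. Ptgs2, Has1, Sele, Il1b and Ccl2 were picked after the values were seen, as were list members named beyond the 4 largest changes of a list. Female day 15 replicate 3 held the highest value of Il6, Ptgs2, Has1, Sele and Cxcl1. It was also the highest library of its day for the monocyte and neutrophil list, at a mean of 2.29 log2 CPM against -0.32 to 0.65 in the other 5. The part of that library's makeup in these rises was not tested. Without it Cxcl1, Il6, Has1 and Sele kept an adjusted p under 0.05, and Ptgs2 did not. Ccl11 was not called without it or without female day 11 replicate 2.

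Genes that respond to glucocorticoids and fasting rose. Of 21 tested genes of muscle atrophy and glucocorticoid response, 7 rose and 0 fell (33.3%), with a median of 0.70. Fkbp5, a chaperone partner of the glucocorticoid receptor and one of its best-known targets, went from 12.6, 14.3 and 16.8 CPM to 19, 38.1 and 94.1 CPM (1.67 ± 0.25, adjusted p = 0.000258). Tsc22d3, the glucocorticoid-induced leucine zipper, went from 62.6, 81.5 and 127 CPM to 192, 219 and 436 CPM (1.57 ± 0.27, adjusted p = 0.000994). Cebpd, a transcription factor of acute responses, went from 6.11, 6.97 and 13.4 CPM to 25.3, 32.4 and 85.7 CPM (2.33 ± 0.29, adjusted p = 2.29e-05). For all 3 genes the days did not overlap. At day 15 they stood nearer to their uninjured levels than at day 11: -0.47 ± 0.24, -0.37 ± 0.26 and 0.17 ± 0.27 against uninjured muscle, after -2.14 ± 0.25, -1.94 ± 0.27 and -2.16 ± 0.29 at day 11.

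Foxo1, a factor that drives genes of protein breakdown, rose from 17.5, 18.9 and 30.1 CPM to 30.7, 42.4 and 46.5 CPM (0.98 ± 0.16, adjusted p = 0.00047). Ddit4, an inhibitor of mTOR signalling, rose by 0.99 ± 0.28, and the metallothionein Mt1 by 1.26 ± 0.31. Neither was called without female day 15 replicate 3, where 5 genes of the list were called. Ddit4 lost its call in 15 of 23 alternative analyses. The ubiquitin ligases of atrophy were not called: Fbxo32 changed by 1.16 ± 0.35 (adjusted p = 0.0595) and Trim63 by 0.66 ± 0.27 (adjusted p = 0.183). Without the library that goes against its label, both were called higher, Fbxo32 at 1.33 (adjusted p = 0.024) and Trim63 at 0.92 (adjusted p = 0.0271). Klf15, another receptor target, changed by 1.12 ± 0.44 (adjusted p = 0.151). Zbtb16, a glucocorticoid-induced zinc finger gene outside the list, rose by 2.20 ± 0.52, from 8.22, 12.4 and 36.5 CPM to 33.0, 60.5 and 163 CPM, but not without female day 11 replicate 2. Depp1, a target of Foxo factors, rose from 5.63, 7.08 and 13 CPM to 57.3, 67.7 and 129 CPM (3.26 ± 0.46, adjusted p = 0.000159), and Slc10a6, a carrier of steroid sulfates, from 1.22, 1.75 and 3.54 CPM to 8.18, 14.2 and 16.3 CPM (2.74 ± 0.25, adjusted p = 4.6e-07). Neither overlapped between the days. In every alternative analysis Depp1 and Slc10a6 kept their calls.

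Of 19 tested clock genes, which keep daily time in each cell, 5 rose and 1 fell (31.6%). Per1, a repressor arm of the clock that hormones and calcium signals also induce, rose from 33.6, 65.1 and 83.7 CPM to 152, 234 and 277 CPM (1.84 ± 0.29, adjusted p = 0.000368). Nfil3, which opposes Dbp at shared sites, rose from 2.84, 4.44 and 7.05 CPM to 13.9, 16.2 and 32.6 CPM (1.99 ± 0.23, adjusted p = 1e-05). Dbp, an output gene of the clock, fell from 67.6, 93.7 and 139 CPM to 11.7, 37.6 and 50.6 CPM (-1.63 ± 0.38, adjusted p = 0.0141). All 3 were without overlap between the days, and the lowest Dbp value was in female day 15 replicate 3, without which Dbp was not called. Arntl, an activator at the core of the clock, rose by 1.18 ± 0.24, its partner Clock by 0.51 ± 0.12 and the repressor Cry1 by 0.90 ± 0.17.

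Other clock genes were not called. Nr1d1 changed by -0.72 ± 0.28 (adjusted p = 0.145), Per2 by 0.21 ± 0.34, Per3 by -0.61 ± 0.32, Nr1d2 by -0.09 ± 0.28, Tef by -0.22 ± 0.23 and Bhlhe40 by 0.68 ± 0.31. Dbp was 69.4, 155 and 234 CPM in uninjured muscle, and stood -2.19 ± 0.38 against it at day 15. The E-box CACGTG was in 28.6% of 21 windows of clock genes, against 7.15% of all windows. Since the labels give no hour of collection, the part of time of day in the changes of Per1, Nfil3, Dbp, Arntl and Cry1 was not tested. Per1 belongs to the glucocorticoid list as well.

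**Figure D3:**
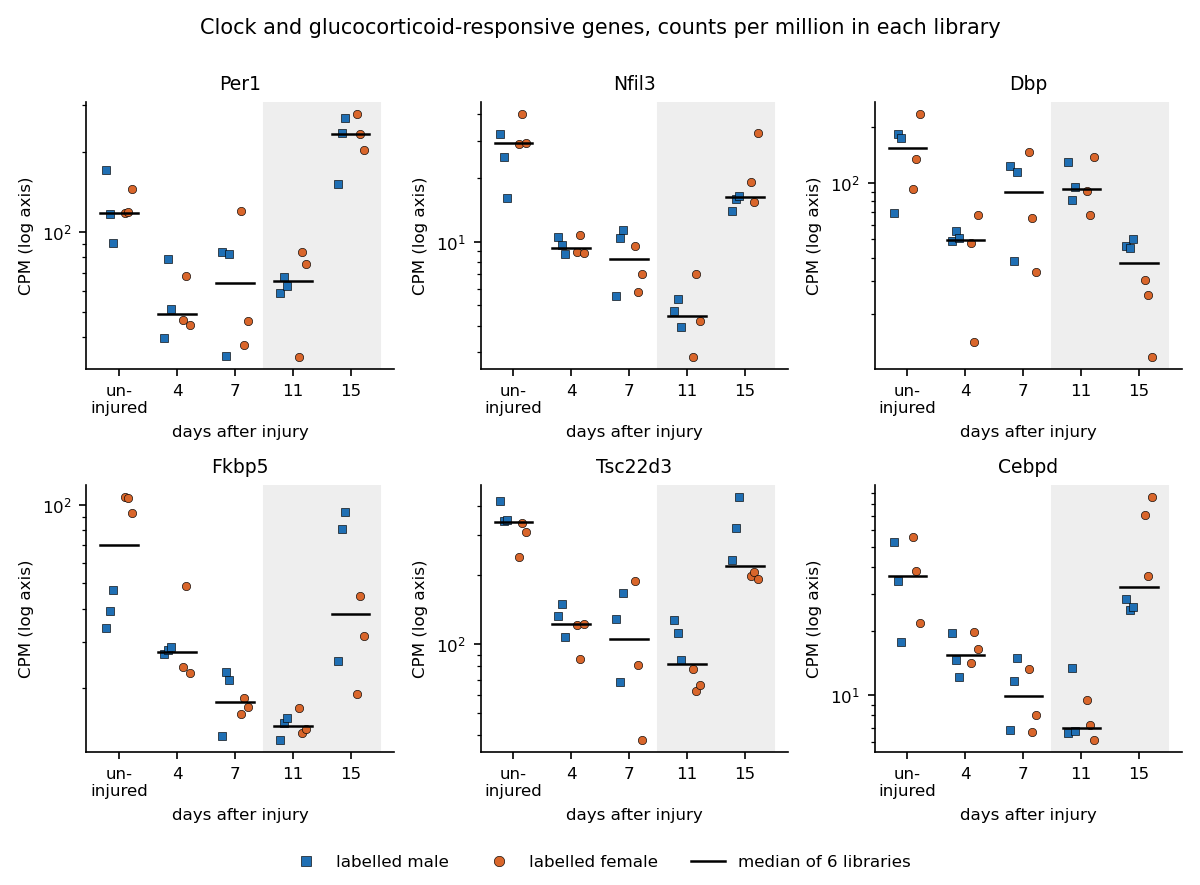
CPM (log axes) of 3 clock genes (Per1, Nfil3, Dbp) and 3 genes of the glucocorticoid and atrophy list (Fkbp5, Tsc22d3, Cebpd) in every library by time after injury (horizontal axes), with squares for libraries labelled male, circles for those labelled female and bars for medians of 6. Dbp lies lower in all 6 day 15 libraries than in any day 11 library, and the other 5 genes lie higher.

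Endothelial genes rose in part. Of 28 tested, 8 rose and 0 fell (28.6%), the median was 0.62, and 26 of 28 had a positive change. Pecam1, the adhesion molecule CD31 of vessel walls, went from 116, 129 and 149.9 CPM to 173, 194 and 223 CPM (0.58 ± 0.15, adjusted p = 0.0265). Esam, a molecule of endothelial junctions, went from 89.3, 99.2 and 108 CPM to 138, 155 and 215 CPM (0.72 ± 0.16, adjusted p = 0.00912). In both genes all day 15 libraries were above all day 11 libraries. Tek, the angiopoietin receptor, rose by 0.86 ± 0.18, its ligand Angpt2 by 1.02 ± 0.25, and Flt1, a receptor of vascular growth factors, by 1.01 ± 0.26.

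Gpihbp1, which holds lipoprotein lipase on capillaries, rose from 32.5, 43.8 and 61.9 CPM to 65.6, 82.9 and 148 CPM (1.03 ± 0.23, adjusted p = 0.0123). Robo4 and the arterial factor Sox17 rose by 0.87 ± 0.22 and 0.80 ± 0.22. Cdh5 (0.48 ± 0.17, adjusted p = 0.103) and Kdr (0.33 ± 0.29, adjusted p = 0.592), both defining genes of the endothelium, were not called. Apold1, an early response gene of endothelial cells, rose from 5.72, 8.12 and 10.4 CPM to 29.4, 51.9 and 123 CPM (2.77 ± 0.47, adjusted p = 0.00114). The mean level of the list was 5.04 to 5.40 log2 CPM at day 11 and 5.54 to 6.15 at day 15, without overlap, beside 4.59 to 5.34 in uninjured muscle. In bulk muscle, more cells of a type and more RNA per cell cannot be told apart, here and below. The number of endothelial genes called was 4 without female day 11 replicate 2, 3 without female day 15 replicate 3 and 13 without the library that goes against its label, which added Cdh5 (0.53, adjusted p = 0.0473). Pecam1 was among the calls lost without female day 11 replicate 2 and without female day 15 replicate 3.

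Bone morphogenetic protein signalling, which acts through Smad factors and the Id genes, had 5 of 23 tested genes higher and 0 lower (21.7%). Id1, the inhibitor of helix-loop-helix factors that is its classic target, rose from 31.5, 34.4 and 48.3 CPM to 74.9, 115 and 139 CPM (1.62 ± 0.23, adjusted p = 0.000126), with no overlap. Id3 and Id4 rose by 0.68 ± 0.15 and 1.01 ± 0.21. Over the 23 the median change was 0.26, with 18 positive. The 5 negative changes ran down to -5.645, in a member that was not called. The ligands Bmp2 and Bmp6 were among the rises. Bmp2 went from 2.45, 3.44 and 5.50 CPM to 4.96, 8.18 and 9.29 CPM (1.04 ± 0.24), and Bmp6 from 5.44, 6.58 and 14.7 CPM to 11.8, 16.5 and 23.3 CPM (1.12 ± 0.31). With both unusual female day 11 libraries left out, 2 of the 5 calls were left. Among 29 genes of the transforming growth factor and activin pathway, the co-receptor Tgfbr3 rose (0.59 ± 0.12) and the binding protein Ltbp2 fell (-1.78 ± 0.44), while Tgfb1 was not called (-0.44 ± 0.20, adjusted p = 0.241) except without the library that goes against its label (-0.61, adjusted p = 0.0413). Of 32 Wnt genes, the secreted inhibitor Sfrp4 rose (1.43 ± 0.39) and Tcf7, a nuclear effector also found in T cells, fell (-0.94 ± 0.23). Calls made up 6.9% of the transforming growth factor and activin list and 6.25% of the Wnt list. Over all tested genes the share was 4.24%. Ltbp2, Sfrp4 and Tcf7 were not called without female day 11 replicate 2 or without female day 15 replicate 3. Leaving out the library that goes against its label gave 4 Wnt genes called lower and 1 higher. Fst, which traps activins and myostatin, was not called (-0.21 ± 0.27, adjusted p = 0.739), and neither was Igfbp5 among 16 genes of the insulin-like growth factor axis, 0 of which were called.

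T cell and natural killer cell genes were lower at day 15. Of 26 tested, 9 fell and 0 rose (34.6%, against 2.25% of all genes called lower), the median was -1.65, and all 26 had a negative change. Cd3e, a chain of the T cell receptor complex, stood at 0.273, 0.821 and 3.10 CPM at day 11 and 0, 0.151 and 0.388 CPM at day 15 (-2.65 ± 0.60, adjusted p = 0.0126). Cd3d went from 0.545, 1.22 and 6.79 CPM to 0.0902, 0.296 and 0.493 CPM (-2.69 ± 0.61, adjusted p = 0.0116). The days overlapped for Cd3e and did not for Cd3d. Foxp3, the factor of regulatory T cells, fell from 0.336, 0.706 and 2.69 CPM to 0.0717, 0.181 and 0.310 CPM (-2.26 ± 0.46, adjusted p = 0.006), with no overlap.

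Cd4 (-1.87 ± 0.48), the kinase Lck (-1.38 ± 0.40) and Cd3g (-1.77 ± 0.51) fell too. So did Cd6 (-1.59 ± 0.43), the interleukin 2 receptor chain Il2rb (-1.66 ± 0.47) and the granule protein Nkg7 (-2.14 ± 0.55). Of 23 alternative analyses, Cd3g lost its call in 16, Il2rb in 14, Lck in 13, Cd6 in 12, Nkg7 in 10 and Cd4 in 8. Ms4a4b, a membrane protein of T cells and outside the list, had the largest fall of the genes above a mean of 5 CPM whose days did not overlap. It went from 2.26, 5.80 and 41.5 CPM to 0.722, 0.941 and 2.04 CPM (-2.89 ± 0.54, adjusted p = 0.00241). The highest value of Ms4a4b was in female day 11 replicate 2. The mean level of the list was 2.38 log2 CPM in that library and 0.02 to 0.89 in the other 5 of day 11, against -0.81 to 0.13 at day 15 and -2.99 to -2.06 in uninjured muscle. Without that library 1 of 26 was called and the median was -1.07, 2 were called without female day 15 replicate 3, and 16 without the library that goes against its label. The part of female day 11 replicate 2 in the fall was not tested beyond these values.

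Of 32 tested interferon-stimulated genes, which cells switch on when type I or type II interferons bind, 13 fell and 0 rose (40.6%), with a median of -0.97. Mx1, an antiviral GTPase, stood at 4.04, 6.31 and 60.6 CPM at day 11 and 1.22, 1.88 and 3.95 CPM at day 15 (-2.52 ± 0.55, adjusted p = 0.00912). Every day 15 library was below every day 11 library. Slfn1, an interferon-responsive gene of lymphocytes and myeloid cells outside the list, went from 2.02, 3.11 and 40.8 CPM to 0.243, 1.22 and 1.85 CPM (-2.61 ± 0.56, adjusted p = 0.00792). Without female day 11 replicate 2 neither Slfn1 nor Mx1 was called, and Slfn1 was at -1.36.

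Zbp1, a sensor of nucleic acids, fell by -1.82 ± 0.42, the factor Irf7 by -1.38 ± 0.36 and Ifit1, whose promoter is printed above, by -1.44 ± 0.40. Ifit1 was 11.9, 20.5 and 124 CPM at day 11 and 5.05, 11.6 and 19.1 CPM at day 15, and the days overlapped. Oas1a, Oas3 and Ifit3 fell by -1.38 ± 0.36, -1.92 ± 0.53 and -1.35 ± 0.39, but each has close copies in the genome, and how reads shared between copies were counted was not given in the sources used here. Isg15 (-1.41 ± 0.42, adjusted p = 0.0527) was not called. The mean level of the list was 6.02 log2 CPM in female day 11 replicate 2, 3.80 to 4.33 in the other 5 libraries of day 11 and 2.98 to 4.07 at day 15. Without that library 1 of the 32 was called and the median was -0.54. Without female day 15 replicate 3, 4 were called, and without the library that goes against its label 18.

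**Figure D4:**
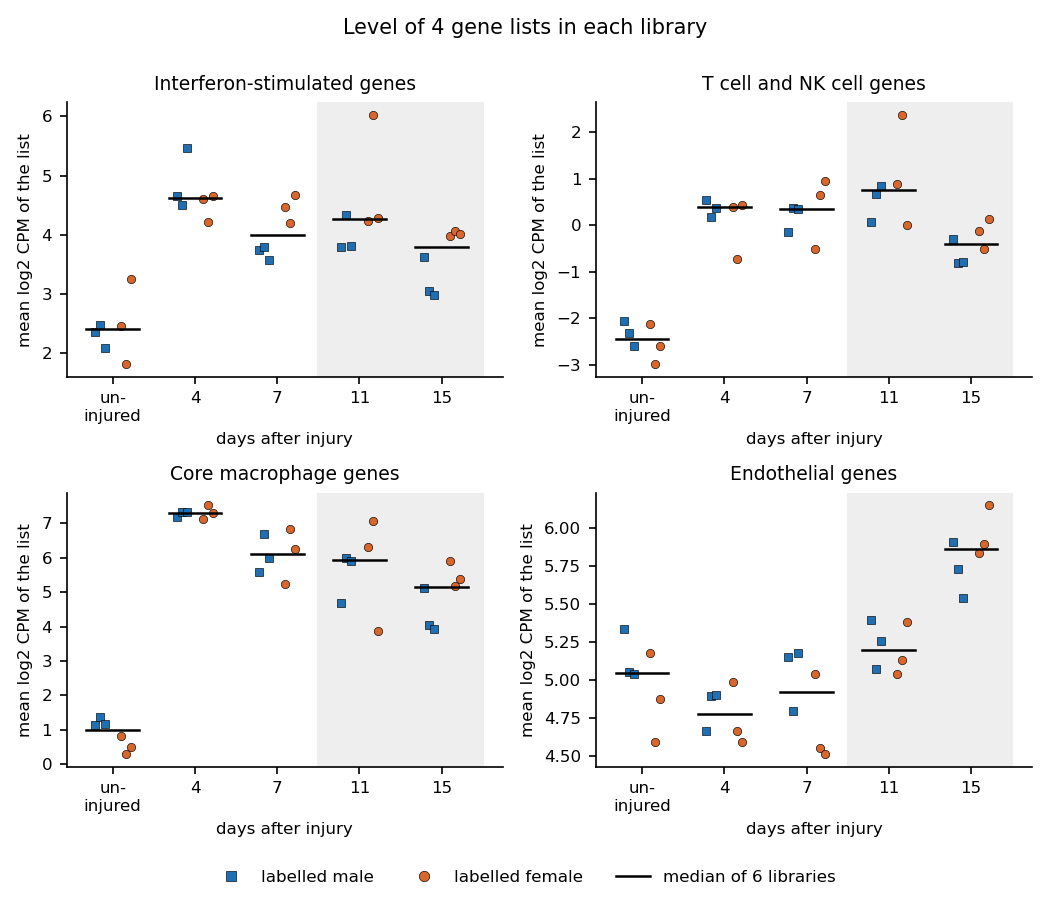
Mean log2 CPM of all tested members (vertical axes) of 4 gene lists in every library by time after injury (horizontal axes), with squares for libraries labelled male, circles for those labelled female and bars for medians of 6. At day 11 1 circle, female replicate 2, lies above the rest for the interferon, T cell and macrophage lists, and the endothelial list is higher in every day 15 library than in any day 11 library.

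Core macrophage genes fell in part: 6 of 20 tested fell and 0 rose (30%), with a median of -0.99. Cx3cr1, the fractalkine receptor, went from 6.21, 17.6 and 42.2 CPM to 3.49, 5.85 and 10.7 CPM (-1.77 ± 0.35, adjusted p = 0.00463). Ms4a7 went from 6, 61.9 and 164 CPM to 5.46, 16.4 and 19.4 CPM (-2.19 ± 0.48, adjusted p = 0.00936). The days overlapped for both genes, and the highest value of each was in female day 11 replicate 2. Aif1, Fcgr1, Tyrobp and Fcer1g fell by -1.72 ± 0.45, -1.69 ± 0.45, -1.52 ± 0.41 and -1.40 ± 0.40. Adgre1, which encodes F4/80, and Cd68 were not called (-0.64 ± 0.40, adjusted p = 0.412, and -1.14 ± 0.44, adjusted p = 0.144), and Cd68 was called lower without the library that goes against its label (-1.42, adjusted p = 0.0275). The summed level of the list ran from 417 to 4408 CPM at day 11 and from 477 to 2069 CPM at day 15. Without female day 11 replicate 2, 1 of the 20 was called. Without female day 15 replicate 3, 2 were called, and without the library that goes against its label 12.

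Of 21 genes of lipid-associated and repair macrophages, 3 fell: Trem2, a lipid receptor (-1.55 ± 0.40), Spp1, osteopontin (-1.95 ± 0.56), and Acp5, an acid phosphatase shared with osteoclasts (-1.79 ± 0.46). The count of falls was 0 without female day 11 replicate 2, 0 without female day 15 replicate 3, 0 with the 12 libraries alone and 7 without the library that goes against its label. Of 19 genes of resident and alternatively activated macrophages, 2 rose and 0 fell (10.5%). The list's median was 0.41, at -0.08 in males and 0.69 in females. Of its changes 13 were positive and 6 negative, down to -4.88 in a member that was not called. Cd163, a haemoglobin scavenger receptor, went from 1.65, 2.66 and 3.36 CPM to 3.98, 6.12 and 12.6 CPM (1.44 ± 0.34, adjusted p = 0.0151). Retnla, a secreted product of alternative activation, went from 1.91, 3.44 and 4.5 CPM to 4.78, 26.5 and 59.7 CPM (2.99 ± 0.50, adjusted p = 0.000886). Neither gene overlapped between the days. Cd163 was not called without female day 11 replicate 2. The mannose receptor Mrc1 was not called (0.10 ± 0.26, adjusted p = 0.879).

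Single genes of other leukocytes fell. Tlr1, a receptor of bacterial lipopeptides, went from 8.94, 17.4 and 45.8 CPM to 2.03, 4.20 and 5.92 CPM (-2.34 ± 0.37, adjusted p = 0.000416). Cd72, a co-receptor first described on B cells, went from 6.08, 14.0 and 61.3 CPM to 1.40, 3.62 and 4.68 CPM (-2.57 ± 0.44, adjusted p = 0.0012). Both were without overlap and kept their calls in every alternative analysis. Of 19 genes of inflammatory monocytes and neutrophils, 3 fell and 0 rose, among them Csf3r, the receptor of a neutrophil growth factor (-1.27 ± 0.32), and Mmp9, a gelatinase (-3.07 ± 0.68). The falls were 1 without female day 11 replicate 2 and 1 with the 12 libraries alone, and Csf3r was called in neither. They were 4 without female day 15 replicate 3 and 5 without the library that goes against its label. Mmp9 kept its call in every alternative analysis. Of 14 B cell genes, Cd22 fell (-1.38 ± 0.39), the 1 call (7.14%, against 4.24% of all tested genes). The median of that list was 0.05, and 8 of the 14 had a positive change. Among 22 complement genes, factor B, Cfb (-1.08 ± 0.31), and the receptor C3ar1 (-1.60 ± 0.39) fell. Without female day 11 replicate 2, without female day 15 replicate 3 and with the 12 libraries alone 0 complement genes were called lower, and without the library that goes against its label 6. Cd22 was not called without female day 11 replicate 2 or without female day 15 replicate 3. Genes of class II antigen presentation and of dendritic cells, 24 tested in 1 list, were not called, with H2-Aa at -0.75 ± 0.40 and Cd74 at -0.68 ± 0.36. Of these 24, 2 were called lower without the library that goes against its label. All 9 mast cell genes had a positive change, with a median of 1.11, and 0 were called. Gata2 was at 0.51 ± 0.24, and at 0.79 (adjusted p = 0.0216) without the library that goes against its label.

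Genes of newly formed fibres were lower at day 15. Of 17 tested developmental and regenerating fibre genes, 4 fell and 0 rose (23.5%), with a median of -0.62. Myh3, embryonic myosin, stood at 70.3, 604 and 772 CPM at day 11 and 92.3, 114 and 319 CPM at day 15 (-1.83 ± 0.47, adjusted p = 0.0265). Myh8, neonatal myosin, stood at 83.9, 849.6 and 1130 CPM and 152, 198 and 308 CPM (-1.71 ± 0.40, adjusted p = 0.0163). The days overlapped, and the library that goes against its label had the lowest Myh3 and Myh8 of the 12, at 70.3 and 83.9 CPM. Tnnt2, cardiac-type troponin T of immature fibres, fell by -1.54 ± 0.40, and Chrng, the fetal subunit of the acetylcholine receptor, by -1.12 ± 0.28. Both myosins were still far above uninjured muscle at day 15, by 5.10 ± 0.55 and 3.76 ± 0.44.

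Myl6b, a slow and embryonic light chain, fell by -1.72 ± 0.39. It was the 1 call among 17 slow fibre and cardiac-type genes (5.88%, against 4.24% of all tested genes). Of these 17, 4 were called lower without the library that goes against its label. Without female day 15 replicate 3, 0 of the 17 developmental genes were called, at a median of -0.58. Without female day 11 replicate 2, 1 was called at a median of -0.71, and without the library that goes against its label 7 were called at -0.76.

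Mature fibre genes gave 0 calls. Of 22 fast contractile genes 17 had a positive change, with a median of 0.39. Myh4, the fast IIB myosin, was at 5628, 9173 and 17670 CPM at day 11 and 8467, 18710 and 21200 CPM at day 15 (0.65 ± 0.46, adjusted p = 0.487), beside 65720, 82720 and 109200 CPM in uninjured muscle. Myh1 (-0.09 ± 0.41), Myh2 (-0.50 ± 0.59) and Myh7 (1.36 ± 0.66), the IIX, IIA and slow myosins, overlapped between the days. The skeletal actin Acta1 was at 0.44 ± 0.48, creatine kinase Ckm at 0.61 ± 0.49 and the ryanodine receptor Ryr1 at 0.08 ± 0.27. The fast contractile list summed to 81890 to 205700 CPM at day 11 and 94470 to 191800 CPM at day 15, against 469600 to 661500 CPM in uninjured muscle, which is the check of the tissue against its defining genes.

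Genes of energy metabolism were not called either. All 33 tested subunits of the respiratory chain and ATP synthase had a positive change, with a median of 0.45, and 0 of 33 were called. All 22 glycolytic and glycogen genes and all 17 enzymes of the tricarboxylic acid cycle were positive too, with medians of 0.43 and 0.35, and 0 called. Aldoa was at 0.52 ± 0.41, Mdh2 at 0.42 ± 0.37, Cox6a2 at 0.53 ± 0.40 and Ppargc1a, the coactivator of mitochondrial biogenesis, at 0.63 ± 0.32. Lpl, which releases fatty acids from lipoproteins, was at 0.85 ± 0.26 (adjusted p = 0.0595), Perm1 at 0.79 ± 0.49 and Jsrp1, of the calcium release machinery, at 0.38 ± 0.28.

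The median of the respiratory list was 0.17 in males and 0.73 in females. Subunits encoded in mitochondrial DNA were not analysed here. Among 17 myogenic and fusion genes 0 were called, with Myod1 at -0.44 ± 0.24, Myog at -0.87 ± 0.32 and the fusion protein Mymk at -1.13 ± 0.40. Without the library that goes against its label 3 of the 17 were called lower, among them Myog (-1.11, adjusted p = 0.0174) and Mymk (-1.39, adjusted p = 0.0117). The satellite cell factor Pax7 was at -0.84 ± 0.33 (adjusted p = 0.158). Hes1 and Hey1, targets of Notch that hold satellite cells and other cells undifferentiated, rose by 1.14 ± 0.23 and 0.73 ± 0.16, the signalling inhibitor Spry1 rose by 0.68 ± 0.14, and the growth factor receptor Fgfr4 of myoblasts fell by -0.77 ± 0.21. These were 3 higher and 1 lower of 18 satellite cell genes (22.2%), and the call of Fgfr4 was lost without any 1 of female day 11 replicates 2 and 3 and female day 15 replicate 3. Mstn, myostatin, was not called (0.70 ± 0.43). In Schwann cell genes the neuregulin receptor Erbb3 fell (-0.67 ± 0.17), and was not called without female day 11 replicate 2 or female day 15 replicate 3. It was 1 call of 18 (5.56%, against 4.24% of all tested genes). The list went the other way, with 13 of the 18 positive and a median of 0.28.

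Matrix proteases and their inhibitors moved in both directions: 3 of 28 rose and 4 fell (25.0%). Timp4, an inhibitor of metalloproteinases, went from 4.77, 10.5 and 21.7 CPM to 27.1, 63.4 and 139.9 CPM (2.66 ± 0.57, adjusted p = 0.00816), and Timp3 from 67.3, 76.9 and 105 CPM to 128, 169 and 204 CPM (1.05 ± 0.26, adjusted p = 0.0248). Neither overlapped between the days, and both stood close to their uninjured levels at day 15, -0.49 ± 0.53 and -0.03 ± 0.26. Timp1 was not called (-1.23 ± 0.41, adjusted p = 0.088), but was without the library that goes against its label (-1.50, adjusted p = 0.0103). Mmp11 fell from 16.8, 23.8 and 28.5 CPM to 8.34, 11.5 and 13.4 CPM (-1.03 ± 0.17, adjusted p = 0.000994), without overlap. The collagenases Mmp13 and Mmp14 fell by -3.68 ± 0.97 and -1.21 ± 0.35.

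For Mmp13 the spread was wide: it stood at 13.1, 43.0 and 149 CPM at day 11, and at day 15 at 75.0 CPM in female replicate 2 and 0.451 to 1.48 CPM in the other 5. Adamts1, which cuts proteoglycans, rose from 10.6, 16.2 and 32.9 CPM to 30, 41.9 and 106 CPM (1.36 ± 0.31). Without female day 15 replicate 3, 1 of the 28 was called higher and 2 lower. Without female day 11 replicate 2 the counts were 2 and 2, and without the library that goes against its label 3 and 6. In the list of cartilage and bone genes Spp1, Acp5 and Mmp13 fell and 0 rose of 20. All 3 calls were lost without female day 11 replicate 2, without female day 15 replicate 3 and with the 12 libraries alone.

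Few structural matrix genes were called. Of 38 collagen chains, Col9a2 fell (-1.78 ± 0.47) and 0 rose, with a median of -0.50. That is 2.63% called, against 4.24% of all tested genes. Without the library that goes against its label 4 collagen chains were called lower and 1 higher, and without female day 11 replicate 2 or female day 15 replicate 3, 0. Col1a1, the main collagen of scar, was at 1419, 5315 and 9667 CPM at day 11 and 1495, 2581 and 4542 CPM at day 15 (-0.93 ± 0.42, adjusted p = 0.224). Col3a1 (-0.36 ± 0.37), fibronectin Fn1 (-0.72 ± 0.42) and periostin Postn (-1.15 ± 0.48) were not called either, and their days overlapped. At day 15 Col1a1 was still 5.25 ± 0.50 above uninjured muscle and Postn 7.18 ± 0.62.

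Among 43 matrix glycoproteins, Ccn1 and Ccn2, matricellular proteins that respond to stretch and growth factors, rose. Ccn1 went from 38.4, 69.5 and 79.0 CPM to 180.4, 313 and 592 CPM (2.33 ± 0.29, adjusted p = 2.92e-05), and Ccn2 from 18.7, 27.9 and 44.2 CPM to 73.1, 166 and 272 CPM (2.29 ± 0.41, adjusted p = 0.00161), both without overlap. Spp1, Ccn4 (-1.38 ± 0.38) and Emilin1 (-1.18 ± 0.32) fell. These 3 falls were not called without female day 11 replicate 2, without female day 15 replicate 3 or with the 12 libraries alone, while Ccn1 and Ccn2 kept their calls in every alternative analysis. In collagen processing, Pcolce2 (1.56 ± 0.32) and P4ha2 (0.52 ± 0.13) rose and Adamts14 fell (-1.12 ± 0.30), 3 of 26. Of this list 6 were called lower without the library that goes against its label, with P4ha2 no longer called, and 0 were called lower without female day 11 replicate 2 or female day 15 replicate 3. The small proteoglycan Podnl1 fell (-2.07 ± 0.49), 1 of 14 (7.14%, against 4.24% of all tested genes). The smooth muscle actin Acta2 (0.00 ± 0.35) and the progenitor receptor Pdgfra (0.09 ± 0.19) were not called. Gsn, gelsolin, rose (0.98 ± 0.21) as the 1 call among 21 genes of fibro-adipogenic progenitors (4.76%). Lmod1, of smooth muscle, rose (0.91 ± 0.24) as the 1 call of 20 (5%). Both shares were near the 4.24% of all tested genes. Podnl1 and Lmod1 were not called without female day 11 replicate 2 or female day 15 replicate 3.

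**Figure D5:**
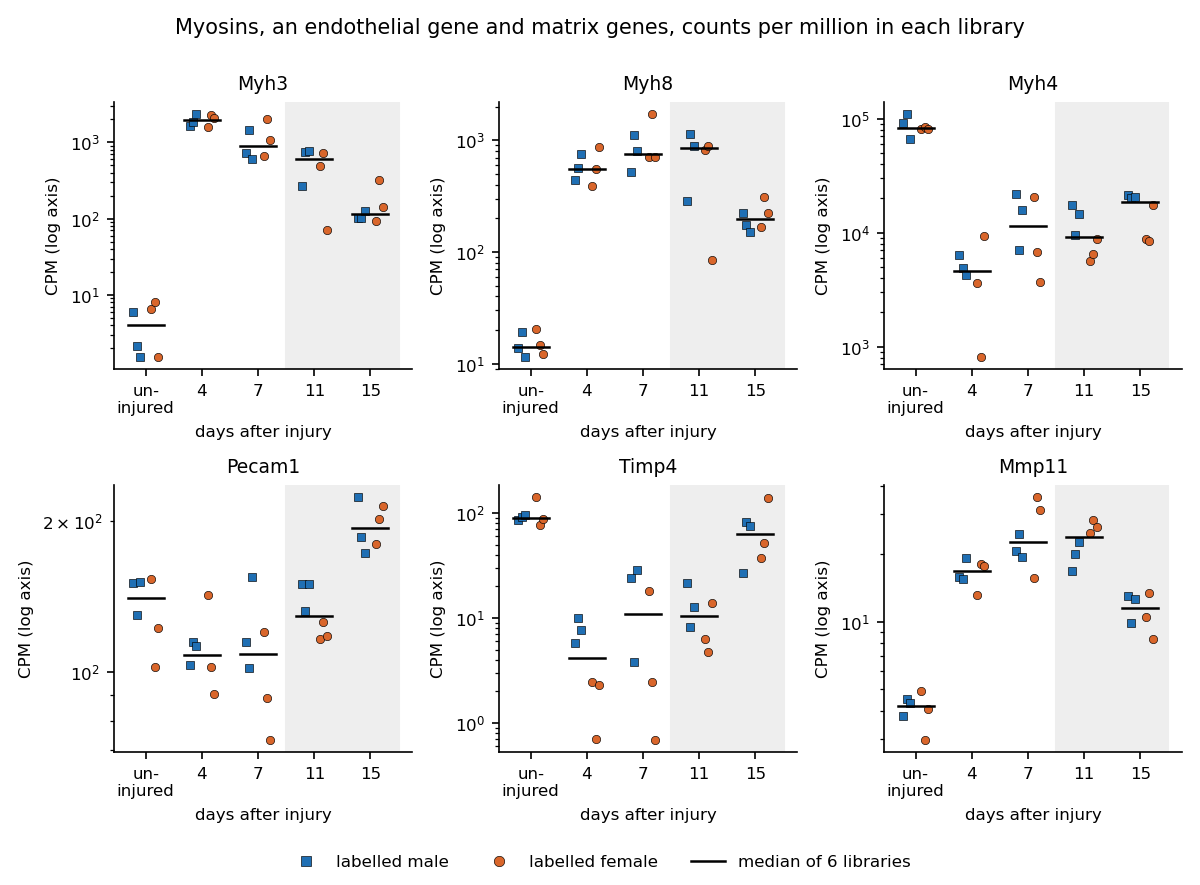
CPM (log axes) of embryonic (Myh3), neonatal (Myh8) and fast IIB (Myh4) myosin, the endothelial gene Pecam1 and the matrix genes Timp4 and Mmp11 in every library by time after injury (horizontal axes), with squares for libraries labelled male, circles for those labelled female and bars for medians of 6. The days overlap for the 3 myosins and do not for Pecam1 and Timp4, which are higher at day 15, and Mmp11, which is lower.

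Of 20 adipocyte genes, 3 rose and 0 fell (15.0%), with a median of 0.72. Adipoq, the fat hormone adiponectin, stood at 0, 0.494 and 3.43 CPM at day 11 and 0.646, 5.19 and 13.7 CPM at day 15 (3.17 ± 0.88, adjusted p = 0.0381), and its days overlapped. Plin4 went from 36.2, 81.5 and 203 CPM to 228, 329 and 647 CPM (1.96 ± 0.54, adjusted p = 0.0362) and Fabp4 from 189, 296 and 402 CPM to 417, 558 and 927 CPM (1.08 ± 0.27, adjusted p = 0.0232), both without overlap. Plin4 and Fabp4 are also made in muscle fibres and endothelium. Without female day 11 replicate 2, and likewise without female day 15 replicate 3, 0 of the 20 were called at medians of 0.73 and 0.66, while DESeq2 called 9. Leaving out the library that goes against its label gave 8 called higher.

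Proliferation genes were lower without calls: all 27 mitosis genes had a negative change, with a median of -0.59, and 0 of 27 were called. Mki67 was at 26.8, 41.1 and 61.4 CPM at day 11 and 19.1, 30.9 and 38.6 CPM at day 15 (-0.57 ± 0.32, adjusted p = 0.34), and Top2a at -0.65 ± 0.33. Of 28 genes of DNA replication, Cdt1, which licenses origins, fell (-1.06 ± 0.29). It was the 1 call of that list (3.57%, against 4.24% of all tested genes). Without the library that goes against its label 5 of the 28 and 2 of the 27 mitosis genes were called lower. Cdca3, which promotes entry into mitosis and is outside the lists, fell from 7.68, 12.1 and 21.7 CPM to 3.61, 5.48 and 6.53 CPM (-1.31 ± 0.30, adjusted p = 0.0136). Neither Cdt1 nor Cdca3 was called without female day 11 replicate 2 or female day 15 replicate 3.

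Of 18 heat shock chaperones, Hspa1a (1.64 ± 0.24) and Hspa1b (1.43 ± 0.30) rose, a pair of nearly identical genes whose reads may be shared. The cholesterol, secretory pathway, ribosomal and lysosomal lists had 0 calls in 23, 24, 55 and 32 genes, with Mvd at 0.33 ± 0.26, Calr at -0.39 ± 0.24, Rpsa at -0.18 ± 0.24 and Psap at -0.28 ± 0.30. Without the library that goes against its label 8 lysosomal genes were called lower, and the median of that list went from -0.38 to -0.53. Markers of skin and red cells gave 0 calls in 6 genes each. Of the 6 red cell genes 5 had a positive change, with a median of 1.28, and Tfrc, the member with the highest level, was the exception at -0.12 ± 0.26. Trp63 was at 0.33 ± 0.23, and the tested skin genes summed to 21.2 to 40.4 CPM at day 11 and 21.3 to 41.8 CPM at day 15.

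The remaining genes with large falls were Ptprv, a receptor-type phosphatase, from 9.39, 18.5 and 27.7 CPM to 1.86, 3.49 and 8.61 CPM (-2.11 ± 0.42, adjusted p = 0.00409), the orphan receptor Gpr162 (-1.47 ± 0.26, adjusted p = 0.00198) and Ppfia4, of the liprin scaffold family (-1.40 ± 0.24, adjusted p = 0.00128). For all 3 the day 15 libraries lay below the day 11 libraries. Ptprv was nearly absent from uninjured muscle, at 0 to 0.184 CPM.

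The change between the days was also compared between the sexes. In males 26 genes were called, 24 higher and 2 lower, and in females 199, of which 140 were higher and 59 lower. The difference between those counts does not show a difference in response: a test of the sex difference itself called 0 genes with edgeR, with 524 at an unadjusted p under 0.05, and DESeq2 called 4. The smallest adjusted p in edgeR was 0.998. The sex-linked list had a median change of -11.54 in females and 0.14 in males. The female day 11 group holds the library with Y-linked counts. The genes with the smallest unadjusted p were Spidr, Eps8l1 and S100a9, with a positive female minus male difference, and Ccdc93, Otog and Mfsd7a, with a negative one. For Ccdc93 the female minus male difference was -1.27 ± 0.31 on the log2 scale (unadjusted p = 0.000348), for Otog -3.17 ± 0.79 and for Mfsd7a -1.71 ± 0.44. For Spidr it was 1.53 ± 0.47, for Eps8l1 3.43 ± 1.00 and for S100a9 5.11 ± 1.48. Spidr rose over both sexes (1.32 ± 0.24) and the other 5 were not called. Eps8l1 was at -3.31 ± 0.76 in males and 0.12 ± 0.66 in females. S100a9 was at -2.70 ± 1.09 and 2.41 ± 1.01, Ccdc93 at 0.62 ± 0.22 and -0.65 ± 0.22, Otog at 1.78 ± 0.56 and -1.39 ± 0.56, and Mfsd7a at 0.34 ± 0.30 and -1.37 ± 0.31. Zfp36 changed by 2.39 ± 0.41 in males and 3.86 ± 0.44 in females, and Cxcl1 by 2.58 ± 0.57 and 4.94 ± 0.62. The library that goes against its label is among the female libraries of each of these values. The highest day 11 levels of Ccdc93, Otog, Mfsd7a and Eps8l1 were in it.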

How the data were processed

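RNA was measured by sequencing in 30 libraries of mouse tibialis anterior, 3 for each sex and time. Per the file headers and the submitters' processing notes, the authors aligned reads with STAR to mm39, and edgeR is also named, both without a version. The deposited files hold raw counts per gene symbol. For the counting program, annotation, strand setting and handling of shared reads, the sources used here give nothing. Between 70.3% and 75.9% of counts were even, as when both reads of a pair are counted.

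The deposited counts were fitted with edgeR 4.0.16 (R 4.3.3, limma 3.58.1), with 1 mean for each of the 10 groups of all 30 libraries, TMM factors, filterByExpr (17136 of 26264 genes tested, 9128 removed) and the quasi-likelihood test. Contrasts weighted the sexes equally, and p-values were adjusted by Benjamini-Hochberg over all tested genes. Levels in log2 CPM used a prior count of 2. The fit was tested on simulated data, in which libraries were independent and none was set apart or wrongly labelled. That test therefore cannot speak to the calls that depend on single libraries here. Taken over all genes together, counting error was small beside the spread between libraries of a group. The lowest chi-square per degree of freedom was 15.4 for a pair of libraries. Abundant genes dominate that value. For genes at low CPM, such as Cd3e, Foxp3, Xcl1 and Il6, counting error may not be small, and it was not assessed for each gene.

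Genes are named by a rule: the 10 largest rises and 10 largest falls that were called, had a mean of at least 5 CPM and did not overlap between the days; up to 4 called members of each of 54 lists at 1 CPM or more, or the highest member where none was called; 3 genes in each direction for the sex difference; and a set reported whether called or not. Others were chosen after their values were seen. The members and lists were chosen with earlier results of these data known. Alternatives covered scaling, filters, a fold threshold, the libraries fitted, depth, a replicate block, DESeq2 1.42.0 and each library left out. Halved counts and leaving out both female day 11 replicates 2 and 3 were added after seeing the data. Replicate numbers did not pair the samples. Results for some genes are not reported here.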

Additional observations from a re-analysis of the deposited data

Results flagged for a closer look

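In each group of 6 libraries of a day, the highest and the lowest value of each named gene, and of each list but the sex-linked one, were compared with the rest. 31 of 504 groups (6.15%) had 1 library set apart. Chance flags about 1 in 20 groups. Values are log2 CPM.

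Female day 11 replicate 2 stood above the other 5 for Slfn1 (5.35), Mx1 (5.923), Ifit1 (6.953), Ifit3 (7.574), Isg15 (7.491), the T cell and natural killer cell list (2.377) and the interferon-stimulated list (6.023). Female day 11 replicate 3, which goes against its label, was high for Fst (4.751), Mfsd7a (6.13), Arntl (3.89) and the adipocyte list (3.934), and low for Hspa1a (0.8435), the slow fibre list (5.92) and the heat shock list (5.771). Male day 11 replicate 1 was high for Bmp6 (3.884) and male day 11 replicate 3 low for Il6 (-3.233).

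Female day 15 replicate 3 was high for Nfil3 (5.031), Gpihbp1 (7.211), Adamts1 (6.723), Hey1 (4.488), S100a9 (4.111), Sele (2.741), Ier3 (5.788), Il1b (4.319) and the monocyte and neutrophil list (2.287), and low for Fgfr4 (2.907). Female day 15 replicate 2 was high for Myl6b (5.837), Myh3 (8.317), Myh2 (11.46) and Mmp13 (6.229). Cox6a2 was low in female day 15 replicate 1 (9.904).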

How the results depend on the processing

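The count of 727 called genes was 704 with RLE scaling, 665 with no low-count filter and 724 after thinning. It was 320 (177 higher, 143 lower) against a fold of 1.2, 412 (135 lower) with the 12 libraries alone, 1274 (533 higher, 741 lower) with DESeq2 and 433 (173 lower) without female day 11 replicates 2 and 3. Library size alone gave 194 higher and 297 lower, 39.5% higher against 47%, and moved the median of all genes from -0.05 to -0.16. The fold of 1.2 gave 55.3% higher. Leaving out 1 library gave 301 to 1506 calls, 186 to 575 higher and 99 to 931 lower. The cause of these differences was not tested.

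In males the fold of 1.2 gave 17 calls (1 lower), DESeq2 112 (76 higher, 36 lower) and the fit without both female libraries 40 (8 lower). Males had 1 lower with library size alone, 4 with no filter and 0 with the 12 libraries. Leaving out 1 library gave 2 to 41 calls, 2 to 32 higher and 0 to 9 lower. In females library size alone gave 103 (68 higher, 35 lower), the fold of 1.2 gave 101 (81 and 20), the 12 libraries 100 (93 and 7), DESeq2 516 (286 and 230) and the fit without both libraries 1 (1 and 0). Leaving out 1 library gave 41 to 309 calls, 39 to 156 higher and 2 to 153 lower. The sex difference had 4 calls with DESeq2, 4 of them lower. These genes are not named here. The part in these calls of the Y-linked counts of female day 11 replicate 3 was not tested, so they are not read as a response of 1 sex.

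With the replicate block 705 genes were called, 368 higher and 337 lower. The deviations of same-numbered libraries had a mean correlation of -0.0677 over 18 pairs (range -0.386 to 0.272). For 0 of 12 libraries was the best match one with the same number, and the numbers were not taken as pairs.

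Changes in sign were seen in genes that were not called. With library size alone, values were -0.11 for Igfbp5, -0.080 for Acta2, -0.028 for Pdgfra and -0.021 for Ryr1. With no filter they were -0.0045 for Igfbp5 and -0.0028 for Acta2, and after thinning 0.011 for Ccdc93. Without both female libraries they were -0.14 for Igfbp5, 0.17 for Fst, 0.36 for Nr1d2, 0.19 for Tfrc, -0.071 for Acta2 and 0.20 for S100a9. With 1 library left out, values ran from -0.098 to 0.13 for Igfbp5, -0.15 to 0.14 for Ccdc93, -0.21 to 0.029 for Myh1, -0.25 to 0.28 for Nr1d2, -0.24 to 0.084 for Tfrc, -0.22 to 0.23 for Acta2, -0.11 to 0.29 for Mrc1, -1.87 to 0.60 for S100a9, -0.62 to 0.062 for Col3a1, -0.041 to 0.25 for Ryr1, -0.044 to 0.76 for Per2, -0.46 to 0.11 for Fst, -0.077 to 0.54 for Otog and -0.39 to 0.055 for Rpsa.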
